A study of Mus musculus with 18 samples.

Results

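The anaphase-promoting complex, or cyclosome (APC/C), its activators, its inhibitors and separase were described by 10 genes, selected by symbol among the 55450 genes of the deposited count table. Each symbol matched 1 gene. The members were the activators *Cdc20* and *Fzr1*, the inhibitor *Fbxo5*, the ubiquitin-conjugating enzymes *Ube2c* and *Ube2s*, *Pttg1* (securin), *Espl1* (separase), and the core subunits *Cdc27*, *Cdc16* and *Anapc11*. RNA came from ED1SQ4 cells, a murine lung cancer line derived from tumors of transgenic mice that overexpress cyclin E, so every group shares that background. Cells received vehicle or 0.5 μM CYC065 (fadraciclib), an inhibitor of CDK2 and CDK9, for 72 hours. They were stained with a DNA dye and sorted into 2N and 4N populations, or left unsorted, which gave 6 conditions. In the annotation used for counting (mm10, GENCODE M21), the regulators lie at separate loci, with *Cdc20* at chr4:118432901-118437352, *Fzr1* at chr10:81366222-81378516 and *Fbxo5* at chr10:5799160-5805600. The conjugating enzymes are *Ube2c* at chr2:164769898-164778822 and *Ube2s* at chr7:4794546-4812590, securin and separase *Pttg1* at chr11:43420250-43426251 and *Espl1* at chr15:102296266-102324357, and the core subunits *Cdc27* at chr11:104502745-104550620, *Cdc16* at chr8:13757676-13781938 and *Anapc11* at chr11:120598421-120608198.

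The APC/C is a ubiquitin ligase that marks mitotic proteins for destruction. CDC20 activates it at the metaphase-to-anaphase transition, when securin and cyclin B are destroyed, and separase, freed from securin, cleaves the cohesin that holds sister chromatids together. FZR1 (also called CDH1) activates the APC/C from mitotic exit through G1, and FBXO5 (also called EMI1) blocks it during S and G2. UBE2C starts the ubiquitin chain on a substrate and UBE2S extends it. CDC27 and CDC16 are scaffold subunits with tetratricopeptide repeats, and ANAPC11 is the RING subunit that engages the ubiquitin-conjugating enzyme.

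Each condition had 3 columns of expected counts, titled as replicates, whose library names number them as parts of 1 library. Chi-square divided by its degrees of freedom was 0.992 to 1.019 between these columns for genes with whole counts, which is the spread that sampling noise alone gives. It was 4.939 to 8.845 for genes with fractional counts, 1.621 to 2.24 for all genes and 0.619 to 1.348 for the members, none of which had fractional counts. The columns were summed and counted as 1 sample. The 6 libraries held 54750168 to 62795451 counts. With 1 library per condition there was no replicate check and no p-value. Levels are counts-per-million values (CPM) after TMM scaling, each with a 95% interval that covers counting error only, and a gene was called higher or lower when its log2 ratio passed 1 (2-fold). No spike-in was named, so all levels are relative to the other RNA in a library. In these bulk libraries, fewer cells of a type and less RNA per cell cannot be told apart.

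The labelled lung cancer cells were checked against cell type markers. Lung epithelial and carcinoma markers were nearly absent, with a summed level of 0.436 to 1.35 CPM, only 1 of 8 reaching 30 counts in a library (*Krt8*), and *Epcam*, *Nkx2-1* and *Sftpc* at 3 counts or fewer. All 7 fibroblast markers were measured, and their summed level ran from 6797 CPM in vehicle 4N to 18580 CPM in CYC065 unsorted cells. It was higher with CYC065 than with vehicle in each population, at 18580 against 9980 CPM in unsorted, 13440 against 7767 CPM in 2N and 10530 against 6797 CPM in 4N cells. The leukocyte markers *Ptprc*, *Adgre1* and *Cd3e* had at most 3 counts, the endothelial markers summed to at most 1.93 CPM, and *Cd68* was higher with CYC065 (log2 ratio 1.42, 2.78 and 2.38 in unsorted, 2N and 4N cells). The part of these markers in the results below was not tested.

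Promoter sequences are shown for members that were lower with CYC065, since mitotic genes often carry a cell cycle homology region (CHR) and CCAAT boxes just before the start site. All 10 members matched a RefSeq promoter window of 250 bases before and 50 after the start (build GRCm38.p6). The CHR letters TTTGAA, searched on both strands, were in 4 of 10 members, namely *Cdc20*, *Fbxo5*, *Ube2c* and *Espl1*, and in 17.89% of all 32851 windows. The letters CCAAT, also on both strands, were in 7 of 10 members and in 37.41% of windows. E2F letters (TTTGGCGC, TTTCCCGC, TTTCGCGC or TTTGCCGC, both strands, none of which contains TTTGAA or CCAAT) were in 0 of 10 members and 2.265% of windows. *Ube2s* was called lower with CYC065 in unsorted, 2N and 4N cells but held neither TTTGAA nor CCAAT. *Anapc11*, called lower in unsorted cells, also lacked TTTGAA. The 150 bases before the start are given for 3 members with TTTGAA and for *Cdc27*, which lacks it and was not called in any comparison. Capitals mark TTTGAA and CCAAT or their reverse complements TTCAAA and ATTGG.
Cdc20: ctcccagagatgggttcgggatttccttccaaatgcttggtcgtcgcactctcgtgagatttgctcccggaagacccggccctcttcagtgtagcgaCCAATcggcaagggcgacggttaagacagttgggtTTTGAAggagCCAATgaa
Ube2c: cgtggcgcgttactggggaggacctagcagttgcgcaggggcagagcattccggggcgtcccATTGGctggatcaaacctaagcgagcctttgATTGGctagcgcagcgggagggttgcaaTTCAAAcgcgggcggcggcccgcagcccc
Espl1: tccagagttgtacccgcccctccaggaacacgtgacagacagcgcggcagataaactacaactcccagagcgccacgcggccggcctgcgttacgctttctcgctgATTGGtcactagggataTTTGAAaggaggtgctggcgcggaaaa
Cdc27: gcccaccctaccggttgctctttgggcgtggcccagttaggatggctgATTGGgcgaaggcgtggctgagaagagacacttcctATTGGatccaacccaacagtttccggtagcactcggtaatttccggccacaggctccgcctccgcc
These windows lie at chr4:118437344-118437493 on the minus strand (*Cdc20*), chr2:164769779-164769928 on the plus strand (*Ube2c*), chr15:102296143-102296292 on the plus strand (*Espl1*) and chr11:104550621-104550770 on the minus strand (*Cdc27*). Counted from the start, TTTGAA began at -18 in *Cdc20*, -29 in *Ube2c* and -27 in *Espl1*. The outermost CCAAT box began at -53 in *Cdc20* and -44 in *Espl1*, and the whole window of *Ube2c* held 6. The TTTGAA match of *Fbxo5* began at base 4 after the start, with 3 CCAAT boxes before it. A match is a description of letters and not a site of binding.

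**Figure D1:**
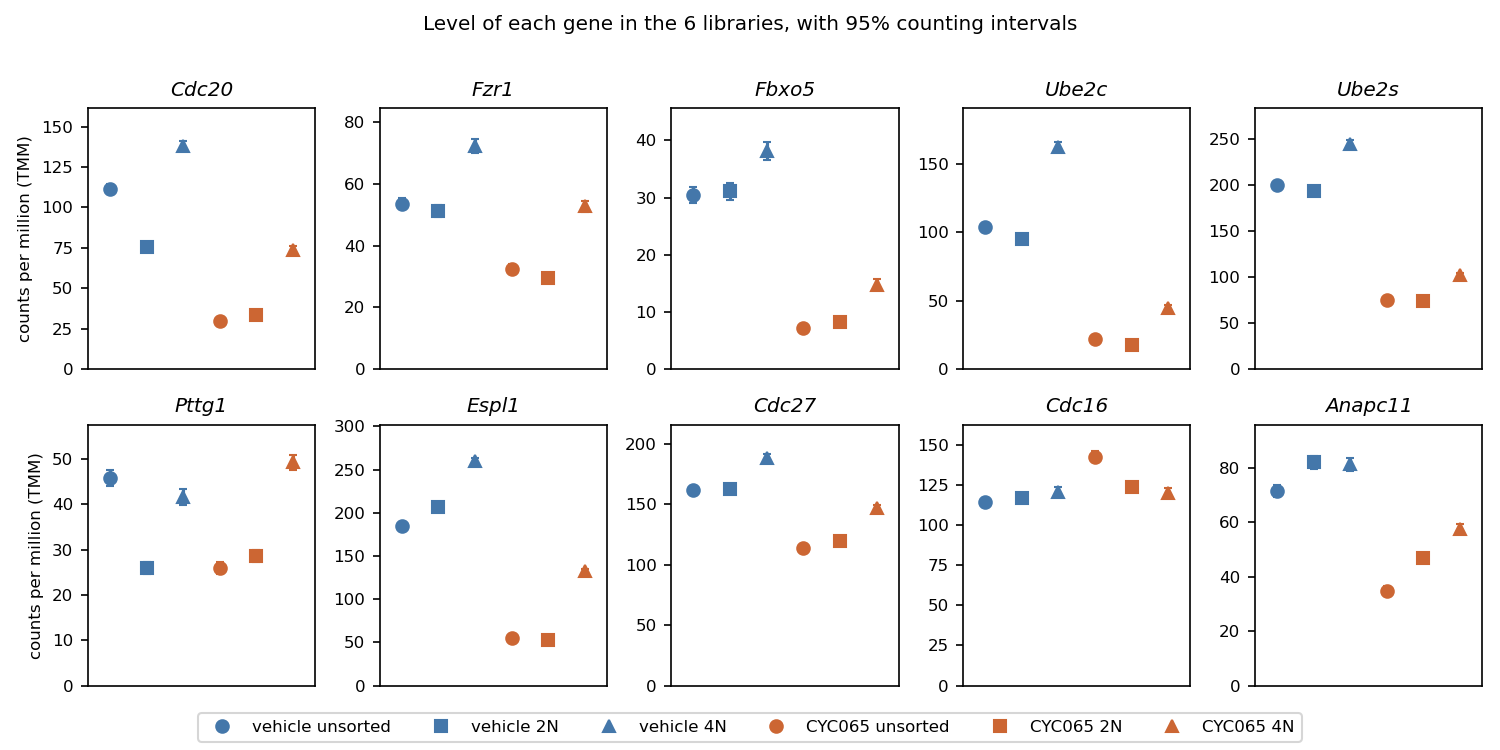
Level of each member in the 6 libraries, in TMM-scaled CPM on linear axes that start at 0, with 95% counting intervals. Blue marks vehicle and orange CYC065; circles are unsorted, squares 2N and triangles 4N cells. *Ube2c* ran from 17.92 in CYC065 2N to 162.5 in vehicle 4N cells, while *Pttg1* was highest in CYC065 4N (49.24) and *Cdc16* in CYC065 unsorted cells (142.6).

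The activator *Cdc20* drives the metaphase-to-anaphase step. It stood at 111.4 CPM in vehicle unsorted, 75.22 in vehicle 2N and 137.9 in vehicle 4N cells, and at 29.68, 33.29 and 73.86 CPM in the same populations with CYC065. CYC065 libraries were lower in each population, although CYC065 4N cells reached the level of vehicle 2N cells (1.02-fold apart, interval 0.977 to 1.06). The log2 ratio of CYC065 to vehicle was -1.91 (interval -1.99 to -1.83) in unsorted, -1.18 (-1.25 to -1.10) in 2N and -0.90 (-0.95 to -0.85) in 4N cells, so it was called lower in unsorted and 2N cells and not in 4N cells. In 4N over 2N cells *Cdc20* had the highest vehicle ratio of the members (0.87) and passed 2-fold with CYC065 (1.15, interval 1.07 to 1.23).

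*Fzr1*, the activator of mitotic exit and G1, differed less. Its levels were 53.66, 51.28 and 72.3 CPM in vehicle unsorted, 2N and 4N cells and 32.54, 29.51 and 52.73 CPM with CYC065. Vehicle unsorted, CYC065 4N and vehicle 2N cells did not differ beyond counting error between neighbours, and only CYC065 unsorted and 2N cells were clearly low. Its log2 ratio to vehicle was -0.72 in unsorted, -0.80 in 2N and -0.46 in 4N cells, below 2-fold in each. As a check that does not depend on scaling between libraries, the counts of *Cdc20* per count of *Fzr1* were 2.08, 1.47 and 1.91 in vehicle unsorted, 2N and 4N cells and 0.912, 1.13 and 1.40 with CYC065. The balance of the activators' transcripts was thus lower for *Cdc20* with CYC065 by 2.28-fold (interval 2.10 to 2.46) in unsorted and 1.36-fold (1.29 to 1.44) in 4N cells, and in 2N cells by a fold whose interval was 1.20 to 1.41.

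The inhibitor *Fbxo5* was the least abundant member, also per kilobase of transcript (mean 11.1 CPM per kb). It was at 30.41, 31.1 and 38.16 CPM in vehicle unsorted, 2N and 4N cells and at 7.10, 8.21 and 14.73 CPM with CYC065. Every CYC065 level lay below every vehicle level, and CYC065 4N cells were 2.06-fold below the lowest vehicle library. The share of all genes whose treatments were apart in this way was not counted, here, for the members below or for count ratios. With CYC065, 45.15%, 45.85% and 44.32% of genes tested were lower beyond counting error in unsorted, 2N and 4N cells. Those higher were 37.64%, 39.03% and 40.32%, so treatments that do not overlap may be common. The log2 ratio was -2.10 (interval -2.26 to -1.94), -1.92 (-2.07 to -1.78) and -1.37 (-1.48 to -1.27) in unsorted, 2N and 4N cells. The counts of *Fbxo5* per count of *Fzr1*, the activator it blocks, ran from 0.528 to 0.606 in vehicle and from 0.218 to 0.279 in CYC065 libraries, with no overlap. With CYC065 this ratio did not differ between 4N and 2N cells beyond counting error (1.00-fold, interval 0.888 to 1.14).

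*Ube2c*, which starts ubiquitin chains, spanned the widest range of any member (9.07-fold). Vehicle unsorted, 2N and 4N cells had 104.0, 95.25 and 162.5 CPM, and CYC065 cells 22.16, 17.92 and 44.93 CPM. The treatments did not overlap, and the highest CYC065 level was 2.12-fold below the lowest vehicle level. Its log2 ratios of -2.23 (interval -2.32 to -2.14), -2.41 (-2.51 to -2.31) and -1.85 (-1.91 to -1.80) put it lower than 98.3%, 99.2% and 97.9% of genes tested in unsorted, 2N and 4N cells.

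*Ube2s*, which extends chains, had the highest mean per kilobase (119.5 CPM per kb). Its levels were 199.4, 193.4 and 244.4 CPM in vehicle unsorted, 2N and 4N cells and 74.97, 73.36 and 102.1 CPM with CYC065. The treatments again did not overlap, with CYC065 unsorted and 2N cells indistinguishable. Log2 ratios were similar in the 3 populations, at -1.41, -1.40 and -1.26. The counts of *Ube2c* per count of *Ube2s* were 0.522, 0.493 and 0.665 in vehicle and 0.296, 0.244 and 0.440 in CYC065 unsorted, 2N and 4N cells. Transcripts of the enzyme that starts chains were therefore lower against those of the one that extends them by 1.76-fold, 2.02-fold and 1.51-fold. Within each treatment the ratio was highest in 4N cells.

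*Pttg1*, securin, was highest in a CYC065 library, as was only *Cdc16* among the other members. *Pttg1* was at 45.81, 25.88 and 41.57 CPM in vehicle unsorted, 2N and 4N cells and at 25.92, 28.54 and 49.24 CPM with CYC065. The highest library was CYC065 4N and the lowest vehicle 2N, which CYC065 unsorted did not exceed beyond counting error. The log2 ratio of CYC065 to vehicle was -0.82 (interval -0.92 to -0.73) in unsorted, 0.14 (0.04 to 0.24) in 2N and 0.24 (0.17 to 0.32) in 4N cells, so the direction in the sorted libraries was opposite to that in unsorted cells, and none passed 2-fold.

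*Espl1*, separase, was at 184.4, 207.2 and 259.5 CPM in vehicle unsorted, 2N and 4N cells and at 55.33, 52.58 and 132.5 CPM with CYC065. Its transcript is long, and per kilobase its vehicle levels were 27.7, 31.1 and 39.0 CPM per kb. CYC065 levels lay below all vehicle levels, and among them 4N cells were 2.39-fold above unsorted cells. The log2 ratio was -1.74 (interval -1.80 to -1.68) in unsorted, -1.98 (-2.04 to -1.92) in 2N and -0.97 (-1.01 to -0.93) in 4N cells, where the interval held the call line and TMM factors set separately for sorted and unsorted libraries put it just past that line. Securin counts per separase count were 0.248, 0.125 and 0.160 in vehicle and 0.469, 0.543 and 0.372 in CYC065 unsorted, 2N and 4N cells. Transcript lengths, 0.948 kb for *Pttg1* and 6.658 kb for *Espl1*, were not divided out of this ratio. This ratio was higher with CYC065 by 1.89-fold (interval 1.75 to 2.04), 4.34-fold (4.01 to 4.71) and 2.32-fold (2.19 to 2.46), and the treatments did not overlap.

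**Figure D2:**
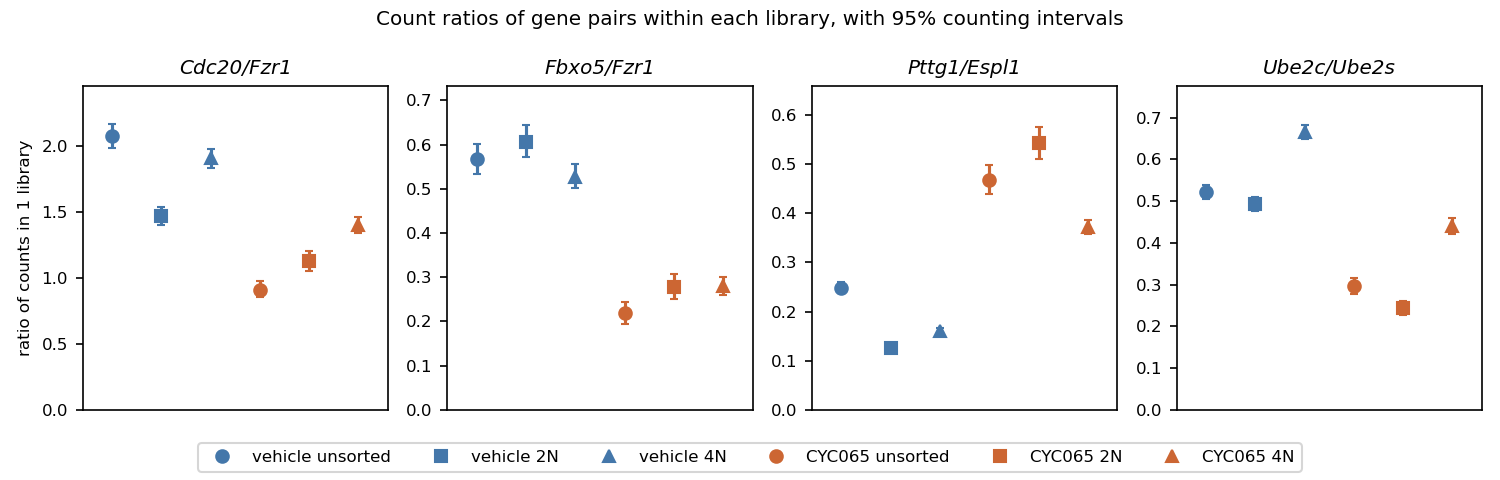
Counts of one member per count of another within the same library, with 95% counting intervals, on linear axes that start at 0. *Pttg1*/*Espl1* was higher in all 3 CYC065 libraries (0.372 to 0.543) than in vehicle (0.125 to 0.248), while *Fbxo5*/*Fzr1* was lower (0.218 to 0.279 against 0.528 to 0.606).

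The core subunits *Cdc27* and *Cdc16* did not pass 2-fold in any comparison. *Cdc27* was at 161.3, 162.5 and 188.1 CPM in vehicle unsorted, 2N and 4N cells and at 113.3, 119.7 and 146.5 CPM with CYC065, a log2 ratio of -0.51, -0.44 and -0.36. *Cdc16* was at 114.1, 117.1 and 120.7 CPM in vehicle and at 142.6, 123.8 and 120.2 CPM in CYC065 cells. CYC065 unsorted cells were the highest. Each of the 4 steps between neighbours among the other 5 libraries was within counting error, although the ends of that order, CYC065 2N (interval 120.9 to 126.7) and vehicle unsorted cells (111.4 to 116.9), did not overlap. Its log2 ratio was 0.32 (interval 0.27 to 0.37) in unsorted, 0.08 (0.03 to 0.13) in 2N and -0.01 (-0.05 to 0.04) in 4N cells. *Anapc11*, the RING subunit, was at 71.49, 82.02 and 81.2 CPM in vehicle and at 34.81, 46.85 and 57.34 CPM in CYC065 cells. All CYC065 levels were below the vehicle levels, and the log2 ratio was -1.04 (interval -1.12 to -0.96), -0.81 and -0.50. The call of *Anapc11* in unsorted cells ended under DESeq2 size factors (-0.98).

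Counts over the members summarise these levels. In CYC065 against vehicle unsorted cells, 6 of 10 members were called lower (*Cdc20*, *Fbxo5*, *Ube2c*, *Ube2s*, *Espl1* and *Anapc11*) and 0 higher, where 13.9% of 14082 genes tested were lower and 11.7% higher. In 2N cells 5 were lower (all of these but *Anapc11*), against 13.3% of genes lower and 14.8% higher. In 4N cells 3 were lower (*Fbxo5*, *Ube2c* and *Ube2s*), against 11.4% lower and 14.1% higher. The median log2 ratio of the members was -1.23, -0.99 and -0.70 in these comparisons and that of all genes tested -0.07, -0.07 and -0.03. Scaling by library size alone shifted the median of all genes by 0.14 in 2N and in 4N cells and moved the share of calls that were higher from 52.8% to 62.9% and from 55.3% to 66.4%, while the members called stayed at 5 and 3.

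**Figure D3:**
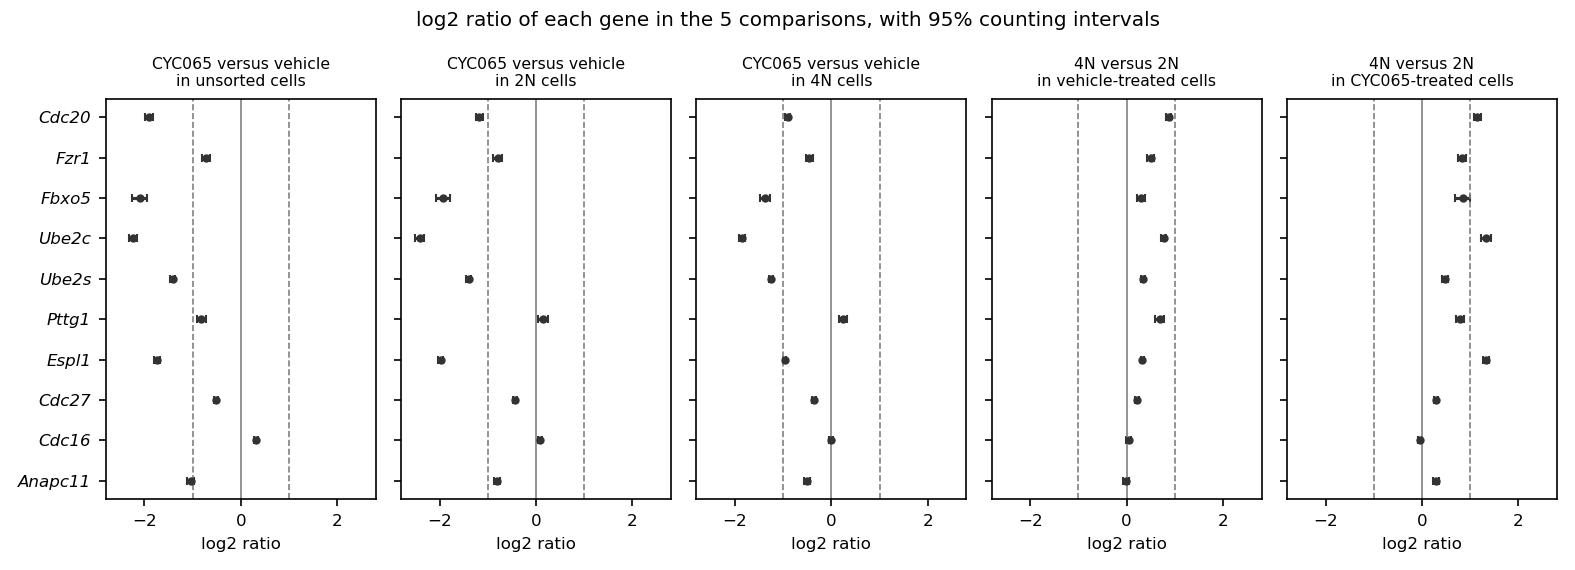
Log2 ratio of each member in the 5 comparisons, with 95% counting intervals (often narrower than the point); dashed lines mark the 2-fold call. *Cdc16* lay between -0.04 and 0.32 and no member passed the line in vehicle 4N against 2N cells, while *Cdc20*, *Ube2c* and *Espl1* did with CYC065.

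DNA content was compared next. In vehicle cells 0 of 10 members passed 2-fold between 4N and 2N cells, where 1.01% of 13365 genes were called higher and 1.67% lower. Below that line, *Cdc20* (0.87), *Ube2c* (0.77) and *Pttg1* (0.68) were ahead of 98.6%, 98.0% and 97.2% of genes, and *Cdc16* (0.04) and *Anapc11* (-0.01) had intervals that held 0. With CYC065, 3 members were called higher in 4N cells, namely *Espl1* (1.33, interval 1.27 to 1.39), *Ube2c* (1.33, interval 1.22 to 1.43) and *Cdc20* (1.15), and 0 lower, against 1.56% of genes higher and 2.01% lower. *Fbxo5* (0.84), *Fzr1* (0.84) and *Pttg1* (0.79) stood just below, and *Cdc16* was at -0.04 (interval -0.09 to 0.00). The median of the members was 0.33 in vehicle and 0.81 in CYC065 cells, and that of all genes 0.01 and 0.02.

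The difference between those log2 ratios, CYC065 minus vehicle, was above 0 for 9 of 10 members, with the interval wholly above 0 for 8, where 52.5% and 27.4% of genes were. Of the lists described below, 10 of 10 G2/M genes and 15 of 18 substrate genes had the interval wholly above 0. So did 7 of 8 checkpoint genes, 11 of 13 cohesin genes and 7 of 10 G1/S genes. Of the EMI1 turnover and other regulators 3 of 5 did, and of the other APC/C subunits only 1 of 11. The median difference was 0.29 for the members, 0.50 for the G2/M genes and 0.45 for the substrate genes. It was 0.30 for the cohesin genes and 0.17 for the G1/S genes, so a difference above 0 was not particular to the members. *Espl1* had the largest difference of the members (1.01, interval 0.94 to 1.08), as its 4N to 2N fold went from 1.25 in vehicle to 2.52 with CYC065. It was the only member beyond 1, where 3.58% of genes were beyond 1 upward and 3.51% downward, and it dropped to 0.96 under DESeq2 size factors. *Ube2c* and *Fbxo5* followed (both 0.55), then *Fzr1* (0.34), *Anapc11* (0.31), *Cdc20* (0.27), *Ube2s* (0.14) and *Cdc27* (0.08). The interval of *Pttg1* held 0 (0.10, interval -0.02 to 0.23) and *Cdc16* was below 0 (-0.08, interval -0.15 to -0.02). These values share libraries with the comparisons of CYC065 against vehicle above and are not a separate line of evidence.

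Unsorted cells contain both sorted populations. Their level lay between the 2N and 4N levels for 4 of 10 members in each treatment, and for 14.7% of genes in vehicle and 18.3% in CYC065 cells. *Pttg1* in vehicle cells was higher unsorted (45.81 CPM) than in either sorted library, as was *Cdc16* with CYC065. The other 5 members outside were below both sorted levels in each treatment, among them *Fbxo5*, *Cdc27* and *Anapc11* in both. In vehicle cells, *Fbxo5*, *Cdc27* and *Cdc16* were below 2N cells by no more than counting error (1.02-fold, 1.01-fold and 1.03-fold). The cause was not tested.

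Related genes, in lists chosen with earlier results of these data known, were counted by role. Of the 11 other APC/C subunits, 1 was called lower in each of unsorted, 2N and 4N cells with CYC065 (*Anapc15*, at -1.33, -1.16 and -1.19) and 0 higher, where 13.9%, 13.3% and 11.4% of all genes were lower. Their medians were -0.24, -0.02 and -0.02, against -0.07, -0.07 and -0.03 for all genes. *Anapc15* helps turn over the checkpoint complex on the APC/C.

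The 8 checkpoint genes encode inhibitors of CDC20 and their regulators, and 6, 6 and 3 of them were called lower in unsorted, 2N and 4N cells with CYC065, against 13.9%, 13.3% and 11.4% of all genes. *Trip13*, an ATPase that remodels MAD2, was the lowest (-2.09, -1.91 and -1.49), and *Mad2l1*, which encodes MAD2 itself, was at -1.93, -1.48 and -1.13. *Mad2l1bp*, whose product helps to take the checkpoint complex apart, was at -0.10, 0.59 and 0.40. *Bub1b*, a subunit of that complex, was the only one called higher in 4N against 2N cells with CYC065 (1.24), where 1.56% of all genes were.

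Among 18 genes whose proteins are APC/C substrates, 15, 14 and 7 were called lower with CYC065 in unsorted, 2N and 4N cells, against 13.9%, 13.3% and 11.4% of all genes. The lowest was *Tk1*, thymidine kinase (-2.84, -3.14 and -2.57). *Ccnb2*, a B-type cyclin, was at -0.97 in unsorted but 0.35 and 0.28 in 2N and 4N cells, the only one of the 18 above 0. *Pttg1* had the same signs, but so did genes outside this list, such as *Mad2l1bp*, *Anapc5* and *Anapc13*. The share of all genes with these signs was not counted. In 4N against 2N cells with CYC065, 8 were higher, against 1.56% of all genes, led by *Ccnb1* (1.51), cyclin B1, and *Plk1* (1.33), a mitotic kinase. Of the 13 genes of cohesin, the target of separase, and its regulators, 2, 2 and 0 were called lower with CYC065, a share near or below that of all genes. *Sgo1*, which shields centromeric cohesin, was called in both (-1.56 and -1.17), *Esco2*, a cohesin acetyltransferase, in unsorted (-1.18) and *Stag1*, a cohesin subunit, in 2N cells (-1.09). *Sgo1* was also the only one called higher in CYC065 4N against 2N cells (1.02), where 1.56% of all genes were. *Rad21*, the subunit that separase cuts, was at -0.68, -0.41 and -0.25.

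Of 6 genes for the turnover of EMI1 and other regulators, 5 passed the filter of 30 counts (*Fbxo43* did not). *Rassf1* was the only one called, lower in 2N (-1.58) and 4N (-1.96) cells, where 13.3% and 11.4% of all genes were lower. *Btrc*, which encodes the F-box protein that targets EMI1, was at 0.06, 0.01 and 0.21 in unsorted, 2N and 4N cells.

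Lists for cycle position served as a reference. All 10 G2/M genes outside the APC/C were called lower with CYC065 in unsorted cells, 9 in 2N and 5 in 4N cells, against 13.9%, 13.3% and 11.4% of all genes. Between 4N and 2N cells, each of the 10 was called higher with CYC065 (1.04 to 1.58), against 1.56% of all genes. With vehicle 0 were (0.45 to 0.87), against 1.01% of all genes. Of 10 G1/S genes, 8, 7 and 8 were lower with CYC065, against 13.9%, 13.3% and 11.4% of all genes. Between 4N and 2N cells 0 passed 2-fold in either treatment. Of all genes, 1.01% were higher and 1.67% lower there with vehicle, and 1.56% and 2.01% with CYC065. In 2N cells with CYC065 the median of the G2/M genes was -1.66, and *Fbxo5* (-1.92), *Espl1* (-1.98) and *Ube2c* (-2.41) were below it, while *Cdc20* (-1.18) and *Ube2s* (-1.40) lay above it. The part of the share of cycling cells in the members' values was not tested.

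**Figure D4:**
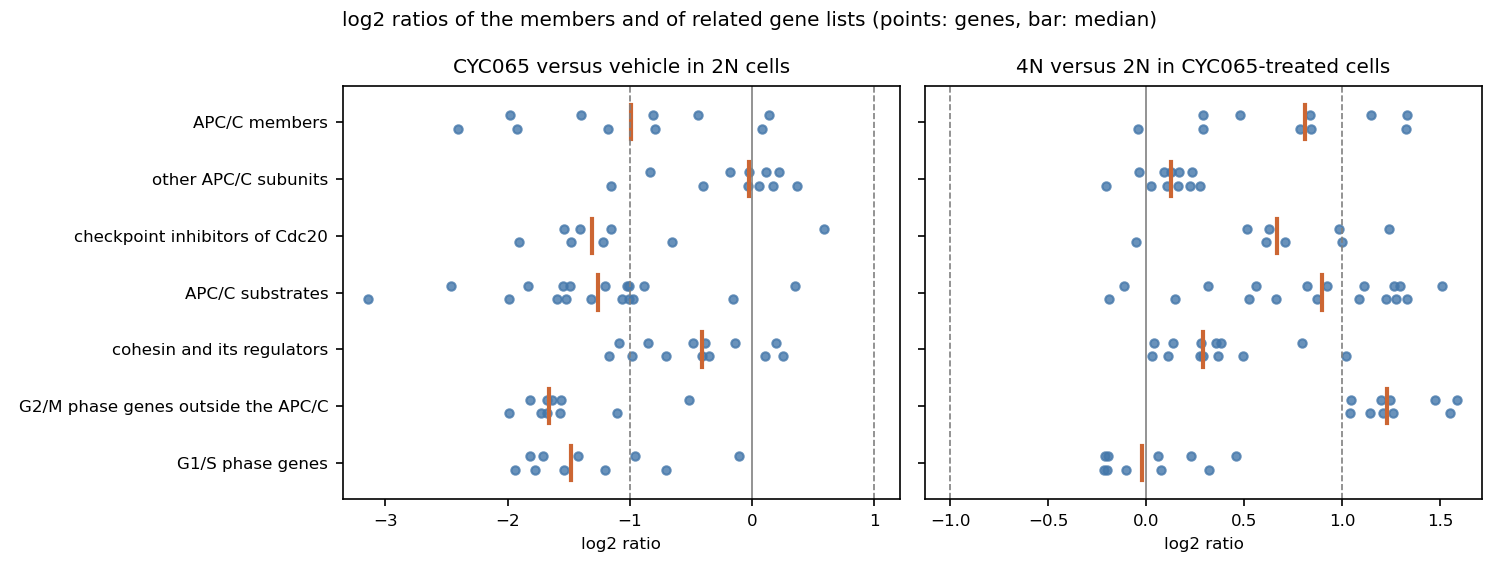
Log2 ratios of the members and of 6 related lists for CYC065 against vehicle 2N cells (left) and 4N against 2N cells with CYC065 (right). Points are genes, the orange bar is the list median, and dashed lines mark 2-fold; the other APC/C subunits centre on -0.02 and 0.13, the G2/M genes on -1.66 and 1.23, and the members between them.

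Genes with the most similar pattern were found by the root mean square difference of mean-centred log2 CPM over the 6 libraries, among 7775 genes with a mean of at least 1000 summed counts. *Kif20a* (0.123), *Gm10184* (0.124) and *Ccna2* (0.125) were nearest to *Cdc20*. *Asf1b* (0.0684), *Foxm1* (0.0790) and *Kif15* (0.0835) were nearest to *Fbxo5*, and *Kif11* (0.0743), *Shcbp1* (0.107) and *Ndc80* (0.110) to *Espl1*. *Poc5* (0.0912), *Trim59* (0.0943) and *Cntrob* (0.0987) were nearest to *Fzr1*. Among the members, *Fbxo5* and *Espl1* were the closest pair (0.191) and *Ube2c* and *Cdc16* the farthest (1.25). With 6 libraries and many genes such likeness is a description only.

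Reads could be shared for some members. In the annotation, 10.4% of the 50-base stretches of *Cdc20* were also in other genes, among them *Gm7856*, and 8.71% of those of *Fbxo5* in *Gm16042*, but *Gm7856* had at most 2 counts and *Gm16042* 0 in a library. Exons of *Cdc20*, *Fzr1*, *Ube2c* and *Ube2s* overlap genes on the opposite strand, and the strand setting of the counting is not given in the sources used here. The partner of *Ube2s*, *Rpl28*, had 13704 to 22760 counts per library and log2 ratios of -0.67, -0.69 and -0.81 with CYC065, and *Elovl1*, the partner of *Cdc20*, had 2487 to 3748 counts and ratios of -0.31, -0.30 and -0.75. *Mfsd12*, the partner of *Fzr1*, had 821 to 1513 counts and ratios of 0.94, -0.37 and -0.31 in unsorted, 2N and 4N cells, while *Tnnc2*, the partner of *Ube2c*, had at most 6 counts. The values of *Ube2s*, *Cdc20* and *Fzr1* are uncertain to the extent that reads were counted for the partner.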

How the data were processed

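RNA-Seq was performed on 6 conditions of ED1SQ4 cells. The authors depleted ribosomal RNA, prepared stranded total RNA libraries, trimmed reads with cutadapt 1.18 and aligned them to mm10 with STAR 2.7.0f. The deposited values are expected counts per GENCODE M21 gene from RSEM, not normalized. The labels name RSEM 1.3.1 and bcl2fastq 2.17, and the methods name other versions. Reads that fit several genes are divided, which left 9.659% of genes with fractional counts. No member had any.

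The 3 columns of a condition were summed and rounded and counted as 1 library. TMM factors from edgeR 4.0.16 (R 4.3.3) over the 6 libraries were 0.941 to 1.078. For each of 5 comparisons, genes reaching 30 summed counts in either library were kept, and log2 ratios were taken with a pseudocount of 0.5. Intervals of 95% came from the exact conditional binomial for ratios and the exact Poisson for levels (SciPy 1.17.1), and a normal approximation for differences of log2 ratios and for ratios of count ratios. No p-value was computed. A log2 ratio beyond 1 was the call, after the study's fold criterion. Levels per kilobase used the longest principal transcript. Scripts were tested on simulated data. The members, gene lists and cell type markers were chosen with earlier results of these data known. All members were named, and listed genes were named when called or at an end of their list. *Mad2l1*, *Ccnb2*, *Plk1*, *Rad21* and *Btrc* were named for their roles or after their values were seen. Alternatives were other scalings, filters and fold criteria, leaving out each column, and edgeR and DESeq2 1.42.0 fits on the 3 columns.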

Additional observations from a re-analysis of the deposited data

Results flagged for a closer look

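*Pttg1* was singled out because its response to CYC065 had opposite directions in unsorted and sorted cells. The log2 ratio of CYC065 to vehicle was -0.82 in unsorted cells, 0.14 in 2N cells and 0.24 in 4N cells. With 1 library per condition, the difference between these values was not tested. None of them passed 2-fold.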

How the results depend on the processing

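Over 610 values of the members under other scalings, filters and fits, 526 stayed within the counting interval, 84 moved beyond it and 0 called values reversed. The absence of a filter and the minimum of 100 counts gave 50 of these values each. Neither could change a member's ratio, so they say nothing about stability. Only values near 0 changed sign (*Cdc16* between treatments in 4N cells and *Anapc11* between vehicle 4N and 2N cells). The largest shift was 0.14 with library size scaling and 0.15 when a column was left out. The members called lower in unsorted cells went from 6 to 5 with DESeq2 size factors, as the interval rule and both column fits also gave. The 3 columns are titled as replicates, but their library names number them as parts of 1 library, and whether they came from separate cultures is not given in the sources used here. They were fitted with their number as a block all the same. edgeR on the columns with the replicate block called 1782 genes higher and 1738 lower in unsorted cells, with 5 members lower, and compares these libraries only.

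The counts over all genes followed the filter and the fold criterion, given here as unsorted, 2N and 4N cells with CYC065, then 4N against 2N cells in vehicle and in CYC065. Without a filter, 5867, 7899, 7376, 2647 and 3154 genes were called higher and 4462, 3758, 3503, 2808 and 4046 lower. Beyond 1.5-fold, 2934, 3408, 3402, 513 and 642 were higher and 3717, 3701, 3387, 710 and 735 lower, and the members called were 5 lower in 4N cells, 3 higher in vehicle and 6 higher in CYC065. A minimum of 100 counts left 1344 and 1239 higher in 2N and 4N cells, 47 higher and 73 lower in vehicle, and 123 higher and 93 lower in CYC065. An interval wholly beyond 2-fold left 1284 higher in 4N cells, 29 higher and 41 lower in vehicle, and 88 higher and 74 lower in CYC065, and DESeq2 on the columns 140 higher in CYC065. Depth limits most the rarest member, *Fbxo5*, with 391 counts in its lowest library, while the spread between cultures is unknown.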
